A study of Mus musculus with 8 samples.

Results

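The mitochondrial ribosomal proteins are the protein part of the ribosome inside mitochondria. Members were chosen by name alone, as genes whose symbol is Mrpl or Mrps followed by a number and at most 1 further letter, and 76 of the 13439 genes listed for these hearts met that rule. All 76 passed the filter on low values, which left 13120 genes in the tests. Left ventricles of mice gave 8 RNA libraries, with 2 per group. Floxed hearts (Lin28afl/fl) carried loxP-flanked, intact Lin28a, whose protein binds precursors of let-7 microRNAs and stops their processing. Knockout hearts (Lin28aCko, here cKO) had a cardiac deletion of it. Each genotype had either sham surgery or transverse aortic constriction (TAC), in which narrowing the aortic arch makes the left ventricle pump against high pressure, with hearts taken 5 days after TAC. The day of the sham hearts, the age and strain of the mice and the promoter that drives Cre were not stated. The labels do not say that each library is a separate animal, so p-values measure the spread between these samples only. That spread may be technical, except that the 2 cKO sham libraries differ in sex by transcripts given below.

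The mitochondrial ribosome translates the few messages of mitochondrial DNA, which encode core subunits of the respiratory chain and of ATP synthase. Its own proteins are all encoded in the nucleus, made in the cytosol and imported, and its RNAs come from mitochondrial DNA. The heart, with its dense mitochondria, depends on it for oxidative metabolism, and inherited defects of Mrpl3, Mrpl44 or Mrps22 in people cause cardiomyopathy. By known place in the assembled particle, 49 members belonged to the large subunit, which forms peptide bonds, and 26 to the small subunit, which reads the message. Names and places differ for some: Mrps30 and Mrps18a sit in the large subunit, and Mrps36 is now known as a part of the 2-oxoglutarate dehydrogenase complex and not of the ribosome. Of the members 46 have a counterpart in bacterial ribosomes and 29 are specific to mitochondria.

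Libraries held 10315902 to 21871570 reads assigned to genes, and a member had between 216 and 7538 reads in a library. The library cKO sham 2 carried Xist at 44.3 CPM (counts scaled to a common library total) and Ddx3y at 0, unlike the other 7. Xist is a female transcript and Ddx3y a gene of the Y chromosome, so the 2 cKO sham libraries came from mice of different sex. The atrial light chain gene Myl7 was at 65 to 133 CPM in floxed sham 2, cKO sham 2 and cKO TAC 2 and at most 6.16 CPM in the other 5. Transcripts of Lin28a were not analysed here, and the genotypes rest on the labels. All 13 cardiomyocyte markers were listed and summed to 108965 to 117726 CPM in floxed sham, 74101 to 77013 in floxed TAC, 99510 to 104822 in cKO sham and 93347 to 108792 in cKO TAC libraries.

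Promoter letters of the family are shown as a description, and whether members change together was not tested. RefSeq promoter windows (build GRCm38.p6, from 250 bases before to 50 after a start site) were found for 67 of the 76 members, 73 windows in all. The letters CCGGAAG or their reverse CTTCCGG, bound by ETS factors such as GABPA, stood in 32.9% of the member windows and in 16.4% of 12428 windows of tested genes. The 10-base motif of the nuclear respiratory factor NRF1, with 1 free position and read on both strands, stood in 16.4% against 9.34%. The letters AAGATGGC or GCCATCTT, bound by YY1, stood in 16.4% against 4.18%, and the E-box CACGTG in 9.59% against 9.86%. These matches are descriptions of letters and not of binding. The 100 bases before the start site are shown for 6 members whose levels are given further on, with motif letters in capitals: Mrpl28 (chr17:26123403-26123502, plus strand) and Mrpl42 (chr10:95501950-95502049, minus strand), the 2 members with the most negative difference after TAC in floxed hearts, Mrps21 (chr3:95871515-95871614, minus strand) and Mrpl44 (chr1:79775918-79776017, plus strand), which also fell there, Mrpl52 (chr14:54426809-54426908, plus strand), which rose, and Mrpl12 (chr11:120484537-120484636, plus strand), which did not pass the test.
Mrpl28: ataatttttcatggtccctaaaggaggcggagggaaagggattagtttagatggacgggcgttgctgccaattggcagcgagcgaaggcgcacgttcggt
Mrpl42: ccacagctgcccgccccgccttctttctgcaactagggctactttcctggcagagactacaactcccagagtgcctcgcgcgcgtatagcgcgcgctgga
Mrps21: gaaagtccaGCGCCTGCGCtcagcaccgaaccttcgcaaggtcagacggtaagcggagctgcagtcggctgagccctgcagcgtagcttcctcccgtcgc
Mrpl44: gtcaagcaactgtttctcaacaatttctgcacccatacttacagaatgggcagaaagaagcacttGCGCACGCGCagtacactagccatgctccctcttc
Mrpl52: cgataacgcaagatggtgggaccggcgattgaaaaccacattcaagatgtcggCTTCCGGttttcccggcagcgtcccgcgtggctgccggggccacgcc
Mrpl12: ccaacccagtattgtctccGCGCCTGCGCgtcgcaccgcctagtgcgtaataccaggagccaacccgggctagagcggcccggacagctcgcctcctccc
The capitals are the NRF1 motif in Mrps21, Mrpl44 and Mrpl12 and ETS letters in Mrpl52. Neither Mrpl28 nor Mrpl42 held any of the 4 motifs in these 100 bases, and Mrpl42 had YY1 letters that began 27 bases after its start site.

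Many members shared their start region with a gene on the other strand. A head-to-head protein-coding neighbour, with start sites at most 1000 bases apart, stood beside 22 of 76 members (28.9%) and beside 12.5% of 12043 protein-coding genes tested. The neighbour was tested for 21 of them. In floxed hearts after TAC 4 of these neighbours fell and 5 rose, and 6 of the 21 members fell and 1 rose. Of all genes tested 14.5% were lower and 27.9% higher there by limma. Members and neighbours were not tested against each other. Mrps18b and its neighbour Ppp1r10, a phosphatase regulator, both rose (log2 0.62 and 0.65), and in no pair did both fall. In 1 pair, Mrpl51 and Ncapd2, the member fell and the neighbour rose (log2 -0.35 and 0.69). Mrpl36 (log2 -0.17, adjusted p = 0.421 by limma) lies head to head with Ndufs6 of respiratory complex I, which fell by 0.88 on the log2 scale. Exons of Mrpl36 and Ndufs6 overlap on opposite strands. Mrps12 lies beside Sars2, the mitochondrial seryl-tRNA synthetase, with log2 differences of -0.15 (adjusted p = 0.646) and -0.57 (adjusted p = 0.0351).

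The first question was how the family responds to aortic constriction when Lin28a is present. In floxed hearts 26 of 76 members fell and 3 rose after TAC. Over all genes tested 14.5% were lower and 27.9% higher (42.4% in either direction) by the same rule, limma on log2(CPM + 1) with a Benjamini-Hochberg adjusted p under 0.05. As a share, 34.2% of members were lower and 3.95% higher. The median log2 difference of members was -0.23, against 0.14 over all genes, and members ranged from -0.88 to 0.62. In 47 members both TAC libraries lay below both sham libraries (28.9% of all genes) and in 13 they lay above (46.7% of all genes). For 38 members both floxed TAC libraries were below all other 6 libraries, which held for 17.4% of all genes.

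Mrpl28, a large-subunit protein with a bacterial counterpart (ENSMUSG00000024181.9, mm10 chr17:26123500-26126613), had the most negative difference. It stood at 122 and 121 CPM in floxed sham, 68.8 and 62.9 in floxed TAC, 123 and 114 in cKO sham and 109 and 107 in cKO TAC libraries. Both floxed TAC libraries were far below the other 6, which lay between 107 and 123 CPM. The floxed log2 difference was -0.88 ± 0.10 (SE, adjusted p = 0.000185).

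Mrpl42, a mitochondria-specific protein of the large subunit (ENSMUSG00000062981.5, chr10:95480805-95501940), stood at 456 and 452 CPM in floxed sham and 269 and 251 in floxed TAC libraries. It was at 473 and 406 CPM in cKO sham and 415 and 402 in cKO TAC libraries. Again only the floxed TAC libraries stood apart, and the floxed log2 difference was -0.80 ± 0.11 (adjusted p = 0.000347). Per kilobase of the median GENCODE transcript, Mrpl42 had the highest level of the family in floxed sham hearts, 687 CPM per kb, followed by Mrpl30 at 252 and Mrps21 at 244. The median level was 47.9 CPM per kb in the large and 33.2 in the small subunit.

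Mrpl14, a large-subunit protein at the interface of both subunits (chr17:45686322-45698495), was at 68.2 and 73.5 CPM in floxed sham and 44.3 and 37.3 in floxed TAC libraries. In cKO hearts it was at 72.4 and 65.6 CPM after sham and 59.2 and 48.7 after TAC. TAC libraries were below sham libraries in both genotypes, but the difference passed in floxed hearts (log2 -0.78 ± 0.14, adjusted p = 0.00167) and not in cKO hearts (log2 -0.35 ± 0.14, adjusted p = 0.247). The cKO response minus the floxed response was log2 0.43 ± 0.20 (adjusted p = 0.169 by limma), so a difference between genotypes was not shown. Mrpl55, also of the large subunit (chr11:59202486-59206134), was at 70 and 72.9 CPM in floxed sham, 51.7 and 34.4 in floxed TAC, 56.2 and 49.4 in cKO sham and 56 and 44.9 in cKO TAC libraries. Its floxed TAC libraries differed widely from each other and overlapped those of cKO hearts (log2 -0.75 ± 0.19, adjusted p = 0.0102).

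Among small-subunit genes Mrps35 and Mrps21 had the most negative differences. Mrps35, specific to mitochondria (chr6:147042764-147073991), was at 70.5 and 71.9 CPM in floxed sham, 46.8 and 39.8 in floxed TAC, 91 and 77.8 in cKO sham and 75.5 and 65.3 in cKO TAC libraries (floxed log2 -0.71 ± 0.13, adjusted p = 0.00232). Mrps21, which has a bacterial counterpart and NRF1 letters in the stretch shown (chr3:95862634-95871519), was at 108 and 110 CPM in floxed sham, 70.4 and 66.4 in floxed TAC, 129 and 114 in cKO sham and 107 and 91.6 in cKO TAC libraries (floxed log2 -0.66 ± 0.12, adjusted p = 0.00166). For both genes the floxed TAC libraries were the lowest of all 8.

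Past the threshold in the other direction, 3 members rose in floxed hearts. Mrps18b, a mitochondria-specific protein of the small subunit (ENSMUSG00000024436.16, chr17:35910379-35916389), was at 36.5 and 38.4 CPM after sham and 57.9 and 58 after TAC, and at 45.7 and 39.9 CPM in cKO sham and 48.1 and 47.7 in cKO TAC libraries (floxed log2 0.62 ± 0.12, adjusted p = 0.00255). Exons of Mrps18b overlap Gm16279 on the other strand, and how the counting used strand was not stated. Mrps10, of the small subunit (chr17:47368887-47381417), was at 22 and 25.7 CPM in floxed sham, 34 and 36.3 in floxed TAC, 29.3 and 29.5 in cKO sham and 27.1 and 25 in cKO TAC libraries (floxed log2 0.54 ± 0.14, adjusted p = 0.0102). Mrpl52, of the large subunit (chr14:54426909-54429756), was at 27 and 28.3 CPM in floxed sham, 41.4 and 38.6 in floxed TAC, 28.1 and 25.7 in cKO sham and 28.6 and 28.4 in cKO TAC libraries (floxed log2 0.52 ± 0.13, adjusted p = 0.00893). In each of the 3 genes both floxed TAC libraries were above all other 6, which held for 5 members in all and for 32.7% of all genes.

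**Figure D1:**
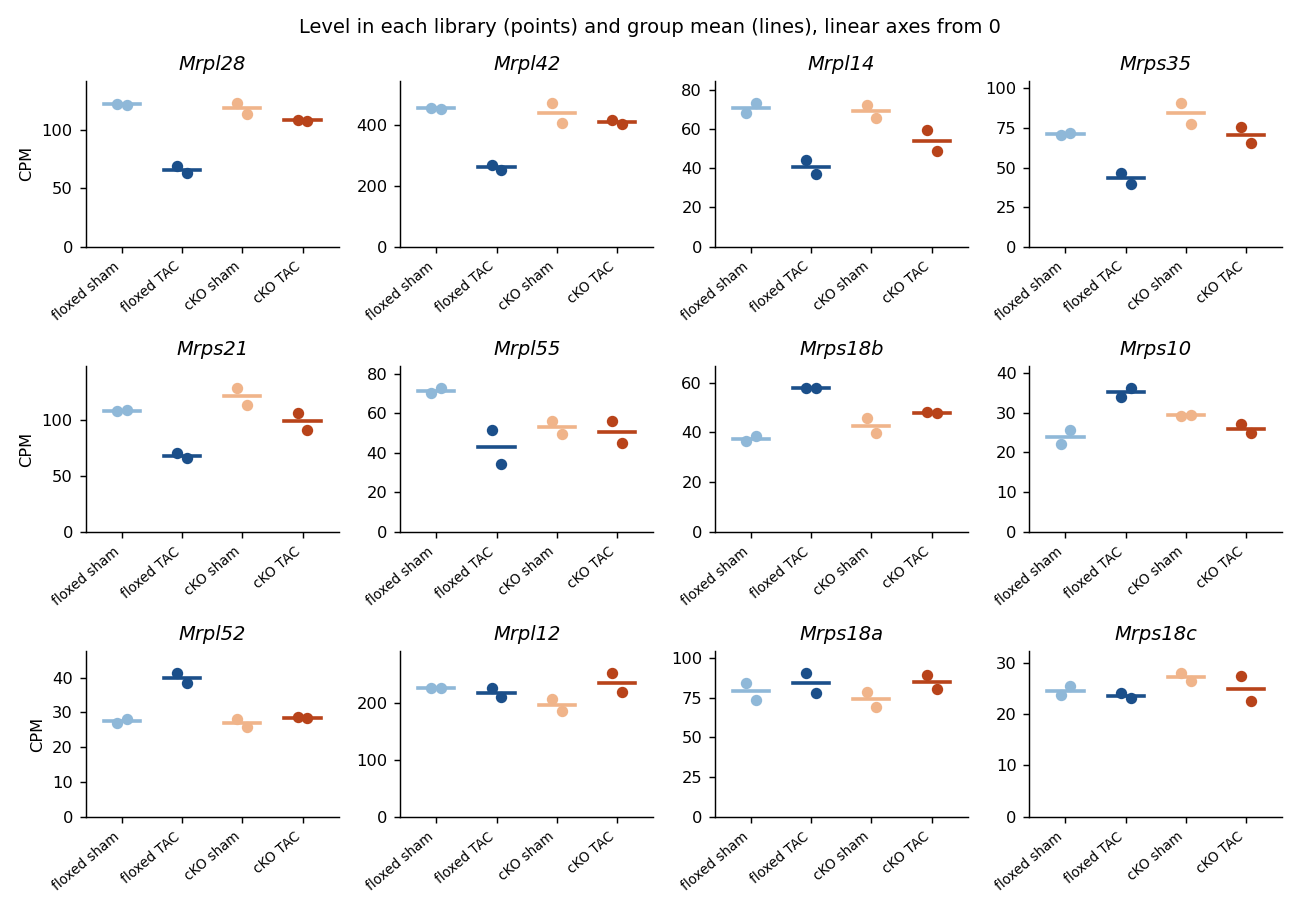
Level of 12 members in each library, in CPM on linear axes that start at 0, with each library as a point and horizontal lines at group means. Floxed TAC libraries are lowest in Mrpl28, Mrpl42, Mrpl14, Mrps35 and Mrps21 and highest in Mrps18b, Mrps10 and Mrpl52, while Mrpl12, Mrps18a and Mrps18c show no such step.

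The 3 paralogues of the S18 protein, which occupy different sites of the particle, had different values. Mrps18b rose as above. Mrps18a, which sits in the large subunit, was at 84.2 and 73.7 CPM in floxed sham and 90.7 and 77.8 in floxed TAC libraries, which overlapped (log2 0.09 ± 0.13, adjusted p = 0.609). Mrps18c, the form in the place of the bacterial protein, was at 23.7 and 25.4 CPM and at 24.1 and 23 CPM (log2 -0.06 ± 0.14, adjusted p = 0.782). Whether the paralogues differ from each other in their response was not tested.

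The stalk that recruits translation factors is built from Mrpl10, Mrpl11 and Mrpl12. Mrpl11, at its base, fell from 56.3 and 57.4 CPM in floxed sham to 43 and 44.1 in floxed TAC libraries (log2 -0.38 ± 0.11, adjusted p = 0.0183). Mrpl10, which anchors the stalk, was at 86.5 and 78.5 CPM and at 65.7 and 66.2 CPM, and missed the threshold (log2 -0.32 ± 0.12, adjusted p = 0.058). Over 21 fits, the main fit and its alternatives, Mrpl11 passed in 16 and Mrpl10 in 8, with RLE scaling among the 8 (adjusted p = 0.0185). Mrpl12, the flexible stalk protein that also binds the mitochondrial RNA polymerase, was at 225 and 226 CPM in floxed sham and 225 and 209 in floxed TAC libraries (log2 -0.05 ± 0.11, adjusted p = 0.733). In cKO hearts Mrpl12 was at 206 and 185 CPM after sham and 252 and 218 after TAC, groups that did not overlap but missed the threshold (log2 0.26 ± 0.11, adjusted p = 0.281).

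Genes tied to inherited cardiomyopathy had unequal values. Mrpl44, which resembles the nuclease RNase III and has NRF1 letters in the stretch shown, fell in floxed hearts from 62.3 and 63.7 to 43 and 45.5 CPM (log2 -0.50 ± 0.13, adjusted p = 0.01). Mrpl3, near the peptidyl transferase centre, was at 77.8 and 63.1 CPM after sham and 57.7 and 58.1 after TAC (log2 -0.27 ± 0.14, adjusted p = 0.145). Mrps22, specific to mitochondria, was at 21.4 and 22.4 CPM and at 21.2 and 19.7 CPM, groups with sham above TAC by little (log2 -0.09 ± 0.16, adjusted p = 0.66).

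Further members with known roles of their own were spread over the same range. Mrpl45, at the exit of the peptide tunnel next to the inner membrane, had a floxed log2 difference of -0.20 ± 0.13 (adjusted p = 0.253). Mrps30 and Mrpl37, related proteins of the large subunit, had -0.40 ± 0.13 (adjusted p = 0.0273) and -0.28 ± 0.11 (adjusted p = 0.0646). Over 21 fits Mrps30 passed in 16 and Mrpl37 in 5, with RLE scaling among the 5 (adjusted p = 0.0158). Mrps28 of the small subunit fell by 0.43 ± 0.13 (adjusted p = 0.0274) and passed in 17 of 21 fits. Mrps27, an RNA-binding repeat protein, had -0.04 ± 0.12 (adjusted p = 0.828). Mrps12, which guards decoding accuracy, was at 26.9 and 27.1 CPM after sham but at 19 and 30.9 CPM after TAC, the widest spread of the family in floxed TAC hearts (log2 -0.15 ± 0.24, adjusted p = 0.646). Mrps36, not a ribosomal subunit, was at 122 and 137 CPM after sham and 112 and 75.7 after TAC (log2 -0.49 ± 0.17, adjusted p = 0.048). Mrps36 passed in 15 of 21 fits.

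By subunit, 18 of 49 large-subunit genes fell (36.7%) and 1 rose, and 7 of 26 small-subunit genes fell (26.9%) and 2 rose. Their median log2 differences were -0.28 and -0.12. Of all genes tested 14.5% fell and 27.9% rose in floxed hearts. Of 46 genes with a bacterial counterpart 16 fell (34.8%) and 1 rose (median -0.22), and of 29 mitochondria-specific genes 9 fell (31%) and 2 rose (median -0.25). No test of these subsets against each other was made. Among members that fell, 4 of 25 promoter windows held the ETS letters, among members that did not pass 18 of 45, and among members that rose 2 of 3. Of all windows of tested genes 16.4% held them. Some members, such as Mrpl2 and Mrpl48, have several windows. The NRF1 motif stood in 6 of 25, 6 of 45 and 0 of 3 of these windows (9.34% of all). YY1 letters stood in 2 of 25, 10 of 45 and 0 of 3 (4.18% of all).

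Summed over all 76 members, floxed sham libraries held 5141 and 5103 CPM, floxed TAC libraries 4417 and 4126, cKO sham libraries 5626 and 4897 and cKO TAC libraries 5361 and 4840. The 2 floxed TAC libraries had the lowest sums of all 8, and the cKO groups overlapped. The large-subunit sum was 2.75 and 2.81 times the small-subunit sum in floxed sham, 2.60 and 2.42 times in floxed TAC, 2.61 and 2.61 times in cKO sham and 2.56 and 2.68 times in cKO TAC libraries.

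**Figure D2:**
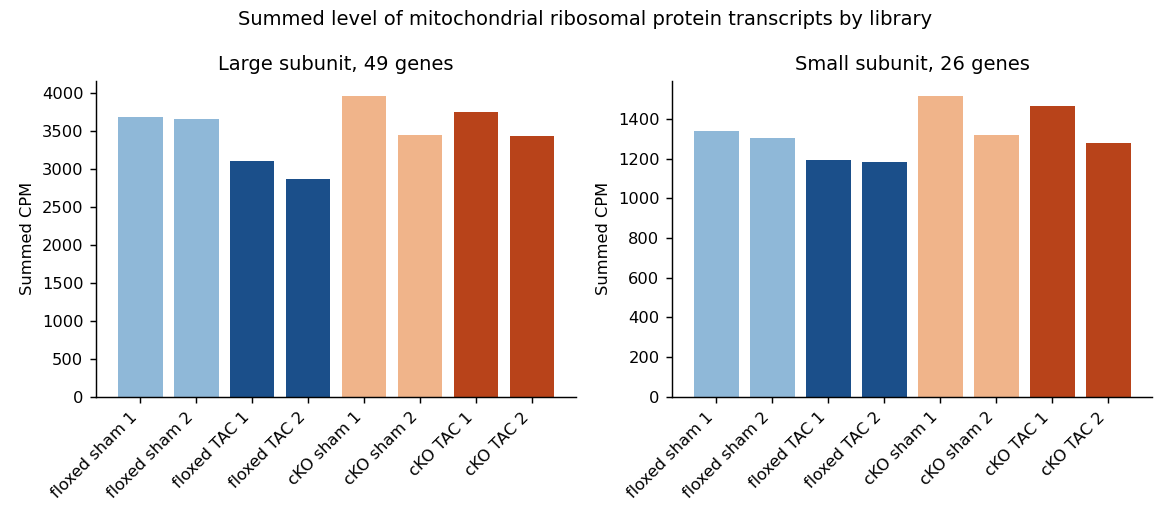
Summed CPM of 49 large-subunit genes (left) and 26 small-subunit genes (right) in each of the 8 libraries, as bars from 0. Large-subunit sums are 3109 and 2867 in floxed TAC libraries and 3436 to 3959 in the other 6.

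Some lists of markers of other cells also changed after TAC. Fibroblast markers (8 of 8 listed) summed to 1464 to 1585 CPM in floxed sham, 11978 to 15418 in floxed TAC, 1576 to 1794 in cKO sham and 3411 to 5749 in cKO TAC libraries. Macrophage markers (11 of 11) summed to 419 to 427, 2136 to 2414, 345 to 453 and 757 to 1041 CPM in the same order. In floxed hearts after TAC 7 of 8 fibroblast, 11 of 11 macrophage and 6 of 6 proliferation markers rose, and in cKO hearts 4, 9 and 6 of them did. Of 7 smooth muscle and pericyte markers 4 rose and 1 fell in floxed hearts, and 1 rose in cKO hearts. Of 7 endothelial markers 0 passed in either genotype. Of 13 cardiomyocyte markers 7 fell and 2 rose in floxed hearts, and 0 passed in cKO hearts. Of all genes 27.9% rose and 14.5% fell in floxed hearts, and 2.09% rose and 0.442% fell in cKO hearts. In bulk heart RNA, fewer cells of a type and less RNA per cell cannot be told apart, and the part of these markers in the result was not tested. The count of 29 members past the threshold became 10 when floxed sham 1 was left out (all genes 27.7%), 12 with floxed sham 2 left out (29.3%), 14 with floxed TAC 2 left out (29.7%) and 18 with the 3 libraries with atrial transcripts left out (36.7%). All genes together had a median of 0.14 in this comparison and 0.00 under RLE scaling, where 34 members were lower (19.8% of all genes) and 3 higher (22.8%).

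**Figure D3:**
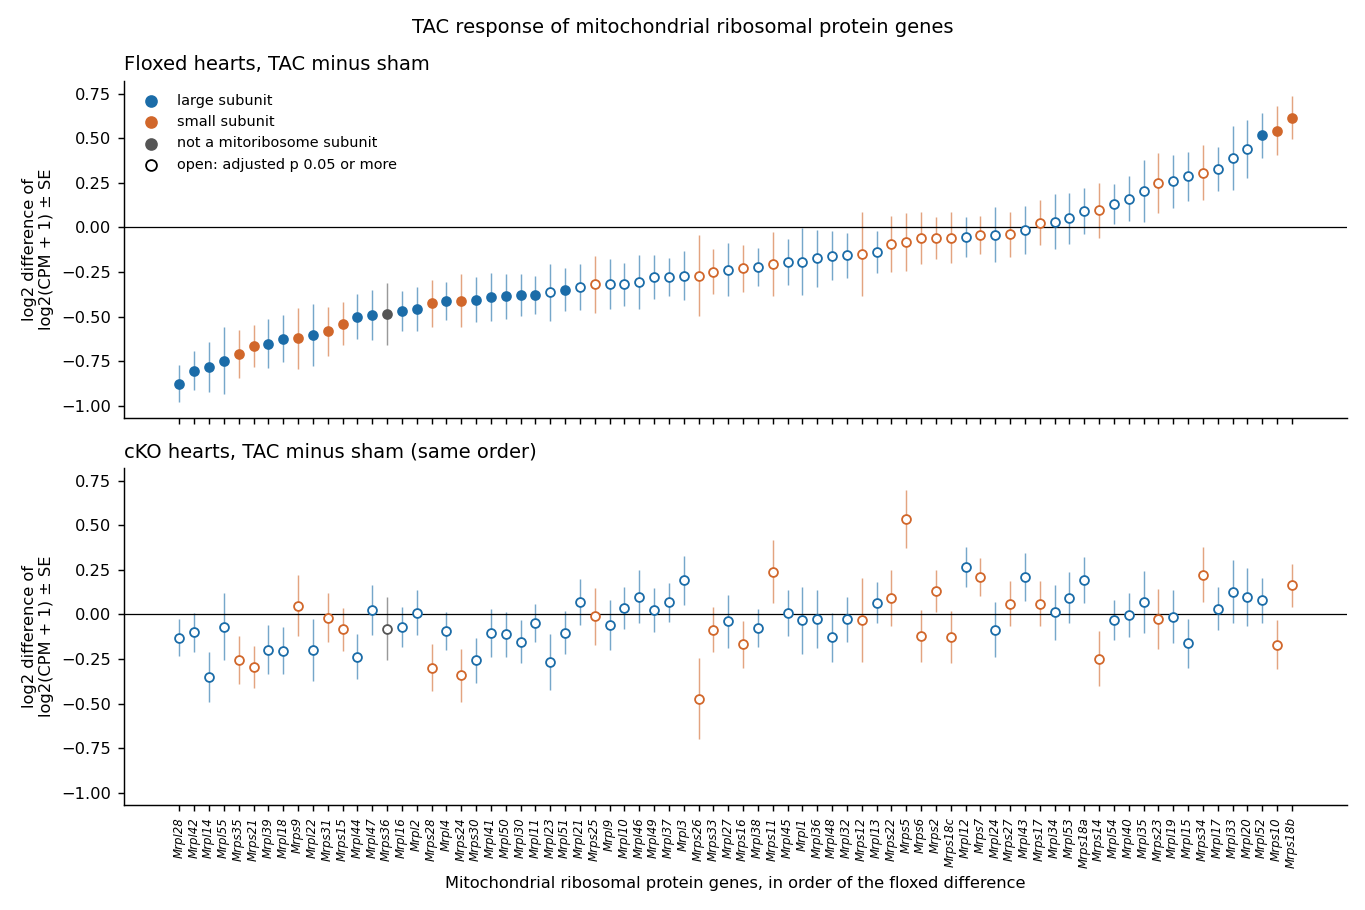
Difference between TAC and sham libraries on the log2(CPM + 1) scale for all 76 members, with the SE of the fit, in floxed hearts (top) and cKO hearts (bottom) in the same order; filled points passed an adjusted p of 0.05. Floxed differences run from -0.88 to 0.62 with 29 filled points, and cKO differences lie between -0.47 and 0.53 with none filled.

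The TAC response was then read in hearts with the cardiac deletion. No member passed the threshold there by limma, edgeR, DESeq2 or limma-voom. Of all genes 2.53% passed by limma (2.09% higher, 0.442% lower), 2.64% by edgeR, 5.48% by DESeq2 and 1.01% by limma-voom. At an unadjusted p under 0.05 limma counted 6 members (16.3% of all genes), 2 higher and 4 lower, edgeR 3, DESeq2 2 and limma-voom 3. The median of members was -0.03, against 0.02 over all genes, and the range was -0.47 to 0.53. TAC libraries lay below sham libraries in 12 members (19.9% of all genes) and above in 9 (23% of all genes).

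The TAC comparisons of both genotypes share no library, so the members chosen in floxed hearts could be read in cKO hearts. Of the 26 members that fell in floxed hearts, 23 had a negative and 3 a positive difference in cKO hearts. Their median was -0.11 in cKO and -0.50 in floxed hearts. The 26 were chosen by their floxed values, which makes the floxed median more extreme, so these medians do not compare the responses of the genotypes. Of all 76 members 46 had a negative cKO difference. The 47 members that did not pass in floxed hearts had 22 negative and 25 positive cKO differences, with a median of 0.01. The 3 that rose in floxed hearts had cKO differences between -0.17 and 0.16. Across the 76 genes, which are not independent replicates, the floxed and cKO differences had a Pearson r of 0.44 and a Spearman rho of 0.51, and 0.62 and 0.51 across all genes tested. Mrps5, at 29.2 and 27.2 CPM in cKO sham and 40.3 and 42.2 in cKO TAC libraries, had the largest cKO difference (log2 0.53 ± 0.16, adjusted p = 0.136), and was named after its values were seen.

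**Figure D4:**
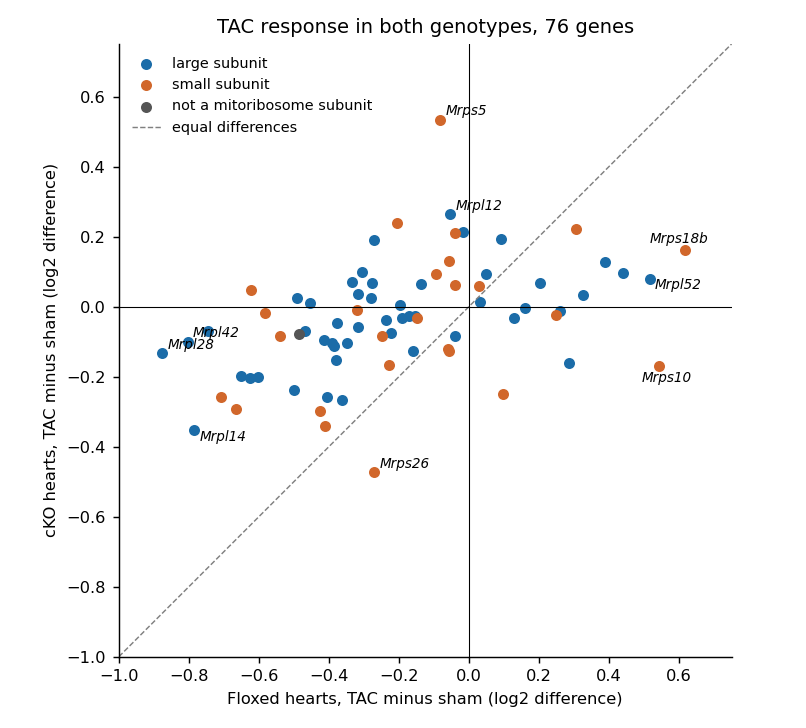
Difference between TAC and sham in floxed hearts (horizontal) and cKO hearts (vertical) on the log2(CPM + 1) scale, a point per member, with a dashed line where both would be equal. Mrpl28 and Mrpl42 lie at -0.88 and -0.80 in floxed and at -0.13 and -0.10 in cKO hearts. Most points at the left lie above the dashed line, where picking points by a low floxed value alone also tends to place them.

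Comparing cKO with floxed hearts after TAC asks how loss of Lin28a changes the loaded heart. Here 12 members were higher and 2 lower in cKO hearts, or 15.8% and 2.63%, where all genes gave 8.39% and 16.5% (24.9% in either direction). At an unadjusted p under 0.05 limma counted 36 members (47.4%), 33 higher and 3 lower, where all genes gave 37.7%. The median of members was 0.24, against -0.10 over all genes. The cKO libraries lay above the floxed libraries in 47 members (23.6% of all genes) and below in 6 (40.2% of all genes). These values use the same floxed TAC libraries as the TAC comparison in floxed hearts and are no second line of evidence.

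The largest difference was that of Mrpl28, at 68.8 and 62.9 CPM in floxed TAC and 109 and 107 in cKO TAC libraries (log2 0.71 ± 0.10, adjusted p = 0.00233). Mrps35 (log2 0.69 ± 0.13, adjusted p = 0.00673) and Mrpl42 (log2 0.65 ± 0.11, adjusted p = 0.00371) followed. Mrps9, a small-subunit protein with a bacterial counterpart, was at 44 and 43.9 CPM in floxed TAC and 80.5 and 60 in cKO TAC libraries, which lay far apart from each other (log2 0.65 ± 0.17, adjusted p = 0.0216). Of the stalk proteins Mrpl11 was higher (log2 0.36 ± 0.11, adjusted p = 0.0355), and Mrpl10 (log2 0.22 ± 0.12, adjusted p = 0.22) and Mrpl12 (log2 0.11 ± 0.11, adjusted p = 0.525) did not pass. Mrpl52 was lower in cKO hearts, at 28.6 and 28.4 CPM against 41.4 and 38.6 (log2 -0.47 ± 0.13, adjusted p = 0.0239), and so was Mrps10 (log2 -0.42 ± 0.14, adjusted p = 0.0496).

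These counts depended on the scaling and on single libraries. Under RLE scaling 24 members were higher (10.8% of all genes) and 0 lower (13.4%), and edgeR gave 26 (11%) and 0 (12.4%), so that the lower calls of Mrpl52 and Mrps10 were lost (adjusted p from 0.0202 to 0.128 and from 0.0424 to 0.211 over the alternatives). The 14 calls became 2 with floxed TAC 2 left out (10.3% of all genes), 3 with cKO TAC 1 left out (10.7%), 6 with floxed TAC 1 left out (11.8%) and 9 with floxed sham 1 (19.7%) or floxed sham 2 (19.8%) left out.

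The interaction subtracts the floxed from the cKO response to TAC. It passed for 3 members, against 14.1% of all genes (4.93% higher, 9.18% lower), with Mrpl28 at log2 0.74 ± 0.15 (adjusted p = 0.0141), Mrpl42 at 0.70 ± 0.15 (adjusted p = 0.0186) and Mrps10 at -0.71 ± 0.19 (adjusted p = 0.0388). At an unadjusted p under 0.05 it counted 19 members, against 31.6% of all genes. The median over members was 0.20, against -0.13 over all genes. For the other 73 members a difference between genotypes in the response to TAC was not shown. No member passed when floxed sham 1 (1.93% of all genes), floxed sham 2 (4.65%), floxed TAC 2 (5.64%) or the 3 libraries with atrial transcripts (13.8%) were left out. With cKO sham 2 left out 1 passed (9.09%) and with cKO TAC 2 left out 6 passed (22.3%).

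In sham hearts cKO and floxed libraries gave no member past the threshold by limma, edgeR, DESeq2 or limma-voom, and each counted 1 at an unadjusted p under 0.05 (7.72% of all genes by limma). Over all genes limma called 0.0534% (0.0457% higher, 0.00762% lower), edgeR 0.0457%, DESeq2 0.43% and limma-voom 0.0152%. The cKO libraries lay above floxed libraries in 14 members (24.9% of all genes) and below in 7 (17.1%). The median of members was 0.05 and the range -0.43 to 0.30. The lowest value was that of Mrpl55, at 70 and 72.9 CPM in floxed and 56.2 and 49.4 in cKO sham libraries. The 2 cKO sham libraries differed from each other more than those of other groups, with a median coefficient of variation over members of 9.79% against 3.49% in floxed sham, 5.25% in floxed TAC and 7.56% in cKO TAC hearts.

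Other genes of mitochondrial gene expression were read from lists. For all floxed counts of these lists, the shares over all genes tested were 14.5% lower and 27.9% higher by limma. The list of mitoribosomal proteins under other names counted Lactb, not an established subunit, and left out Mrp63. It gave 2 of 7 lower and 0 higher in floxed hearts after TAC. These were Dap3, a GTP-binding protein of the small subunit, which fell from 103 and 96 to 64.2 and 65.1 CPM (log2 -0.61 ± 0.11, adjusted p = 0.00149), and Ptcd3, a pentatricopeptide repeat protein of the small subunit, which fell from 172 and 155 to 107 and 106 CPM (log2 -0.61 ± 0.12, adjusted p = 0.00227). Aurkaip1 (log2 -0.25), Chchd1 (log2 0.19), Gadd45gip1 (log2 -0.24) and the peptide release factor Ict1, an older symbol of Mrpl58 (log2 -0.31), and Lactb (log2 -0.36) did not pass.

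Of 29 genes for assembly of the particle and modification of its RNA 9 fell and 1 rose, with a median of -0.29. Fastk, an RNA-binding protein of mitochondria (log2 -0.92), the GTPase gene Gtpbp5 (log2 -0.73) and the methyltransferase gene Mettl15 (log2 -0.70) fell, and Mpv17l2 rose by log2 0.56. Of 17 translation factors and related genes 9 fell and 0 rose, with a median of -0.41. The elongation factor Gfm1 fell from 194 and 199 to 111 and 120 CPM (log2 -0.76 ± 0.10, adjusted p = 0.000315), the messenger-stabilising Lrpprc by 0.75 and Metap1d by 0.66 on the log2 scale. The elongation factor Tufm fell from 343 and 320 to 223 and 243 CPM (log2 -0.51 ± 0.11, adjusted p = 0.0055).

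Of 22 genes for mitochondrial aminoacyl-tRNAs 10 fell and 1 rose (median -0.34), with Pet112 (log2 -0.95), Vars2 (log2 -0.76) and Cars2 (log2 -0.76) lower. Gars, which serves both cytosol and mitochondria, rose by log2 0.67. Of 12 genes for transcription and upkeep of mitochondrial DNA 5 fell and 0 rose (median -0.35), among them Mterfd3 (log2 -0.87), the transcription factor Tfb2m (log2 -0.75) and the RNA polymerase Polrmt (log2 -0.69). All 41 nuclear-encoded respiratory chain and ATP synthase subunits on the list fell, with a median of -0.75 and Ndufs1, Cox8b and Sdha at log2 -1.19, -1.11 and -1.02. The ribosomal family had a median of -0.23 with 26 of 76 lower, and no test of the lists against each other was made.

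In cKO hearts 0 genes of each of these 6 lists passed after TAC by limma (2.53% of all genes). The medians were -0.04, -0.11, 0.00, 0.01, -0.08 and -0.26 in the order given. After TAC cKO hearts were higher than floxed hearts in 2 of 7, 2 of 29, 7 of 17, 6 of 22, 5 of 12 and 39 of 41 genes. They were lower only in Gars (log2 -0.45, adjusted p = 0.0157 by limma). Of all genes 8.39% were higher and 16.5% lower in that comparison. The interaction passed with a positive value in 1 of 7, 3 of 29, 3 of 17, 3 of 22, 1 of 12 and 10 of 41 genes (4.93% of all genes). It passed with a negative value in 1 gene, Gars (9.18% of all genes). Among the list genes that passed were Ptcd3 at log2 0.67 ± 0.16 (adjusted p = 0.0276), Gfm1 at 0.76 ± 0.14 (adjusted p = 0.0121) and Gars at -0.65 ± 0.15 (adjusted p = 0.0247).

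**Figure D5:**
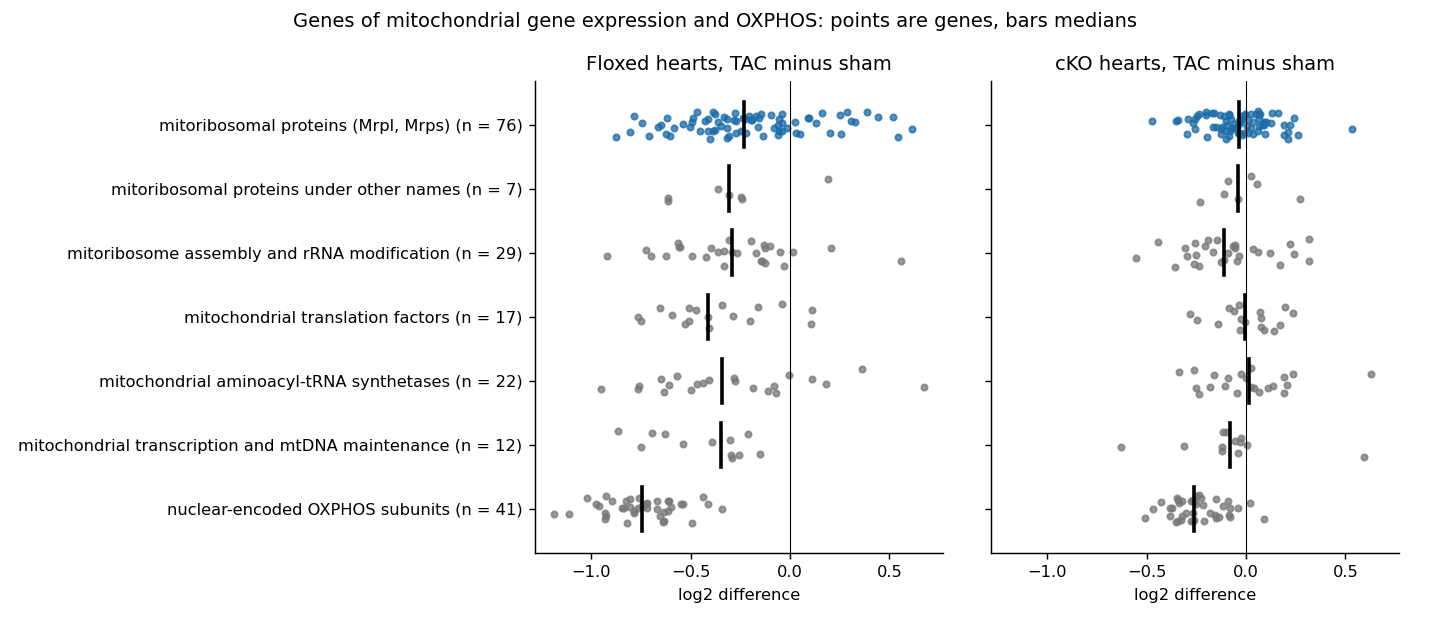
Difference between TAC and sham on the log2(CPM + 1) scale in floxed (left) and cKO hearts (right), with a point per gene and a bar at the median of each list; vertical scatter within a list has no meaning. In floxed hearts the medians run from -0.23 for the 76 ribosomal proteins to -0.75 for 41 subunits of oxidative phosphorylation (OXPHOS), and in cKO hearts from 0.01 to -0.26.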

How the data were processed

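Left ventricular RNA was measured in 8 libraries, 2 in each of 4 groups taken from the sample labels. The deposited values are CPM made by the authors, reads of a gene scaled to the library total; per the submitters' processing notes, Bowtie2 2.2.6, HTSeq, DESeq2 and the mm10 build were used, with annotation and strand setting not given in the sources used here. Dividing by the value of 1 read gave whole numbers, with a tolerance of 0.02 reads, for 100% of values, and these reads were used for count models.

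Genes reaching 1 CPM in 2 or more libraries were fitted with limma 3.58.1 (R 4.3.3, trended variance, 1 coefficient per group, all 8 libraries) on log2(CPM + 1), which understates changes of low genes. P-values were adjusted over all 13120 genes with a threshold of 0.05, two-sided. Alternatives were edgeR 4.0.16, DESeq2 1.42.0 and limma-voom on recovered reads, RLE or TMM scaling, other pseudocounts and filters, a replicate block, fits of 4 libraries and libraries left out. The scripts were tested on simulated data. Positions and lengths came from GENCODE M21, promoter letters from RefSeq (GRCm38.p6). Members and lists were chosen with earlier results of these data known. Most genes were named by rank among those past the threshold in each comparison, with a fixed set of members of known role. The head-to-head pairs were named as examples outside these rules.

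Of 76 members, 21 share exon sequence with a gene on the other strand and 5 with a gene on the same strand, and their counts are less certain.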

Additional observations from a re-analysis of the deposited data

Results flagged for a closer look

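The TAC response differed between genotypes for 3 of 76 members by the interaction test of limma, which passed for 14.1% of all genes. Only 2 of these 3 calls were kept under RLE scaling, TMM scaling, edgeR, DESeq2 and limma-voom. Mrpl28 had an interaction of 0.74 on the log2 scale (adjusted p = 0.0141), with TAC below sham in 2 of 2 floxed libraries and in 2 of 2 cKO libraries. Its adjusted p ran from 0.000683 to 0.089 over the alternatives. Mrpl42, lower after TAC in 2 of 2 floxed libraries and overlapping between cKO groups, had an interaction of 0.70 (adjusted p = 0.0186, 0.00107 to 0.127 over the alternatives). Mrps10 had an interaction of -0.71 (adjusted p = 0.0388, 0.0327 to 0.162 over the alternatives), with TAC above sham in floxed hearts and below sham in cKO hearts in every library.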

How the results depend on the processing

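Counts of members past the threshold are given in the order TAC in floxed hearts, cKO against floxed after TAC, and interaction. In this order limma gave 29, 14 and 3 members (42.4%, 24.9% and 14.1% of all genes). Leaving out each library in turn gave 10 to 31, 2 to 17 and 0 to 6. For cKO against floxed after TAC the count was 24 under RLE scaling (24.2% of all genes), 27 under TMM scaling (24.2%), 26 by edgeR (23.4%), 24 by DESeq2 (23.8%), 30 by limma-voom (26.9%) and 5 in a fit of the 4 libraries compared (18%). Without the 3 libraries with atrial transcripts the counts were 18, 10 and 0. The shares over all genes also changed when libraries were left out, as given for some of these fits above. Samples share only a replicate number, and deviations of same-numbered libraries correlated between -0.11 and 0.08. A replicate block gave 31, 19 and 3 members (42.5%, 25.1% and 14.3% of all genes). TAC in cKO hearts and cKO against floxed in sham hearts had 0 under these alternatives and in the replicate block, and 0 to 0 when each library was left out. Of the 26 members lower in floxed hearts after TAC 7 were lower in all 21 fits, and of the 3 higher Mrps18b was higher in all. No named value that passed changed sign under the alternatives run; 875 values stayed on their side of the threshold, 88 lost it and 14 gained it. Fits that leave a group with 1 library assume that it varies like the others. With 2 libraries a group, small changes of single members are not detectable.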

Other observations

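Some members had wide spread within a group, and were named here after their values were seen. Mrps26 of the small subunit was at 38.8 CPM in cKO TAC 1 and 23.4 in cKO TAC 2, the widest spread of the family in that group. Mrpl1 of the large subunit had 29.6% in cKO sham hearts and Mrps5 22.7% in floxed sham hearts. Mrp63, an older symbol of Mrpl57 that falls outside the naming rule, was at 22.4 and 19.1 CPM in floxed sham and 24.1 and 23.3 in floxed TAC libraries (log2 0.19 ± 0.22, adjusted p = 0.513).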
